A study of Rattus norvegicus with 6 samples.

Results

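The histone lysine methyltransferases and demethylases, the writers and erasers of methyl groups on histone tails, were compared between Nono-KO and WT H9c2 cells. The members were chosen by gene symbol from the table of RNA-seq read counts, as all genes named Kmt, Kdm, Setd, Setdb, Nsd, Ehmt, Suv39h or Jmjd with a number or letter code, together with Ezh1, Ezh2, Eed, Suz12, Dot1l, Ash1l, Ash2l, Wdr5, Rbbp5 and Men1. This gave 57 of the 16319 genes in the table, in which Suv39h1, Setd9 and Kdm5d had no entry. Of the 57, 55 passed the filter on low counts and were tested among 12028 genes. By role the 57 members were 23 writers, 6 core subunits of writer complexes, 5 other SET domain proteins, 17 erasers and 6 other JmjC proteins.

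H9c2 is a myoblast line derived from embryonic rat heart. The Nono-KO cells were made by transfection of a Cas9 plasmid (PX459) with a guide RNA against exon 6 of Nono and selection with puromycin, and they are 1 knockout line. The WT cells carry the wild type genotype, and an EGFP plasmid (pEGFP-N1) served as the control plasmid. Each group has 3 libraries of stranded, poly(A)-selected RNA from cells in culture, so that differences between groups are between 2 cell lines and p-values measure the spread between libraries and not between independent clones.

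Total counts were 17612958 to 18770188 per Nono-KO library and 18138400 to 19253858 per WT library. The targeted gene Nono had 109, 94 and 96 counts in Nono-KO, against 7329, 5884 and 5519 in the WT libraries. The correlation of log2 CPM (counts scaled to library size with TMM factors) across genes was 0.993 to 0.995 within Nono-KO, 0.985 to 0.993 within WT and 0.890 to 0.918 between the groups, and genes are not independent replicates. WT replicate 1 stood apart from the other WT libraries on the second principal component, at 29.1 against -15.3 and -11.1. The tissue on the label is cardiac muscle, and its markers were mixed. Of 15 cardiomyocyte markers 9 did not pass the filter, among them Ryr2 with 0 counts in each Nono-KO library and 1, 0 and 0 in the WT libraries, and Myh6 had 5 to 17 counts in Nono-KO and 11 to 18 counts in WT libraries. Tnnt2 had 1895 to 2583 counts in Nono-KO and 269 to 1492 counts in WT libraries, Nkx2-5 had 713 to 758 and 356 to 437, and Gata4 had 300 to 362 and 283 to 311. Myod1, which marks skeletal myoblasts, had 2662 to 2748 counts in Nono-KO and 2185 to 2658 counts in WT libraries, whereas Chrna1, another muscle marker, had 5 to 13 and 2 to 11.

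Lysine methylation on histones H3 and H4 is written by enzymes with a SET domain and by Dot1l, which has none. It is removed by the amine oxidases Kdm1a and Kdm1b and by oxygenases with a JmjC domain, which need iron and 2-oxoglutarate. Methylation of H3K4, H3K36 and H3K79 goes with active genes, and methylation of H3K9, H3K27 and H4K20 mostly with silent ones. Many of these enzymes work in large complexes, such as the COMPASS complexes for H3K4 and the Polycomb complex PRC2 for H3K27. Several of them, among them Kmt2d, Ezh2 and Kdm6a, are known for roles in development of heart and muscle.

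Writers and erasers were both mostly lower in Nono-KO cells. Of the 55 members tested, 46 passed an adjusted p of 0.05 in edgeR, which is 83.6%, against 72.2% of all genes tested. Of these, 36 fell (65.5%, against 38.1% of all genes) and 10 rose (18.2%, against 34.2%), and 9 members missed the threshold. The log2 fold changes of Nono-KO over WT had a median of -0.60 among the members and -0.05 among all genes. Of the 23 writers, 18 fell and 2 rose (median -0.82), and of the 16 erasers tested, 13 fell and 2 rose (median -1.09). With the study's thresholds for a differentially expressed gene (DEG), an adjusted p below 0.01 with a log2 fold change beyond 1 in either direction, 20 members were lower and 1 was higher. That is 36.4% and 1.82% of the members, against 18.7% and 10.8% of all genes. These shares describe the list and are not a test of it. For 47 members, or 85.5%, all Nono-KO libraries lay on the same side of all WT libraries, against 75.1% of all genes. RNA from cultured cells in bulk cannot tell less RNA per cell from fewer cells that make it.

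**Figure D1:**
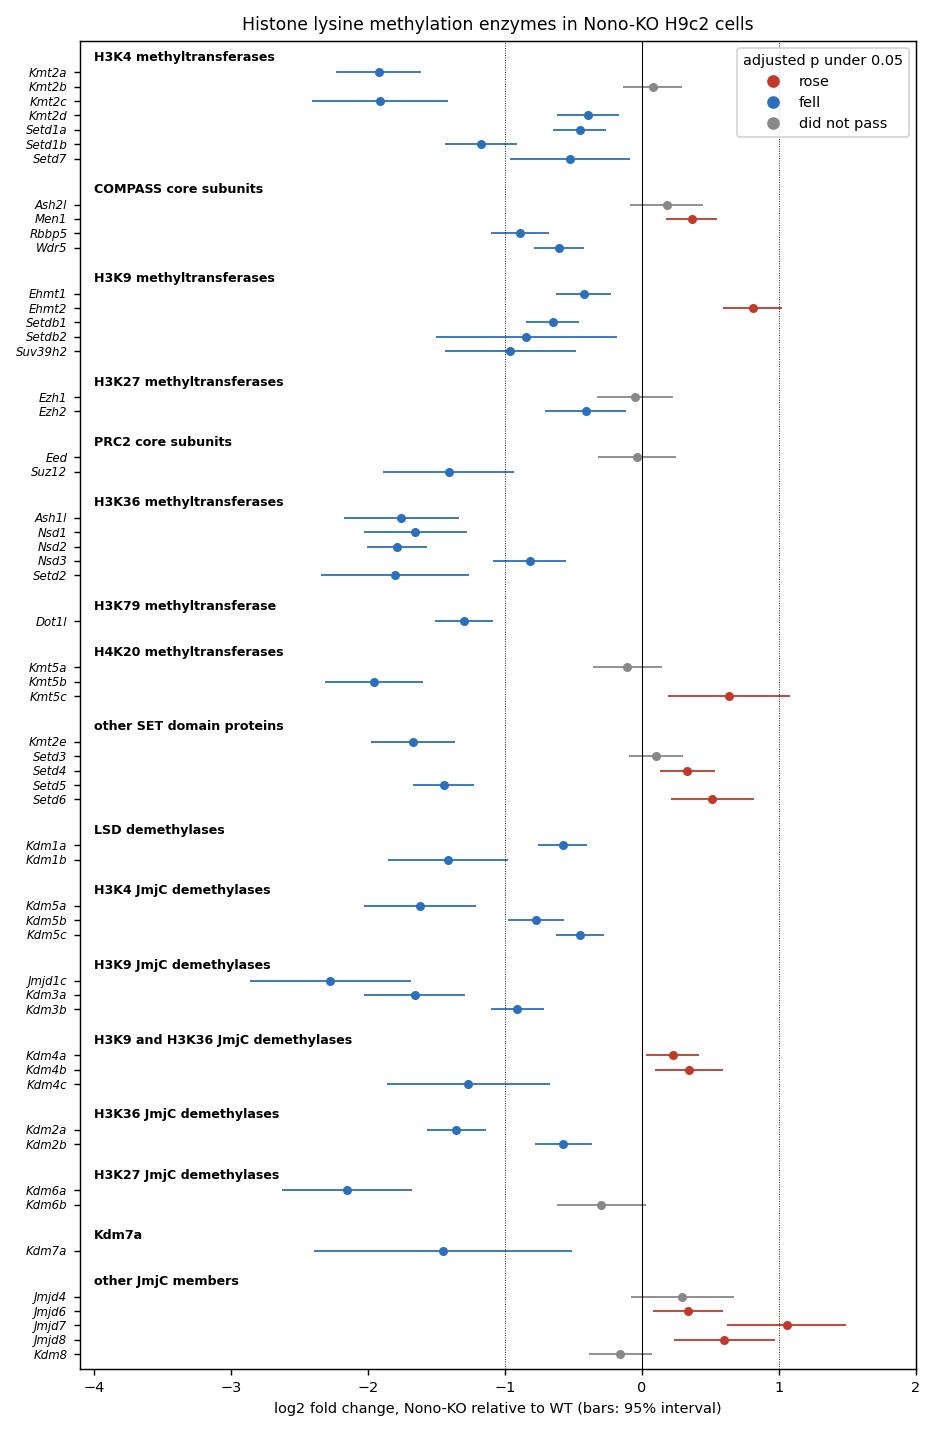
Log2 fold change, Nono-KO over WT (horizontal axis), of the 55 tested members, ordered by role (vertical axis). Points are estimates from edgeR, bars are 95% intervals, colours give the call at an adjusted p under 0.05 and dotted lines stand at 1 and -1. Most points lie left of 0, down to -2.27 for Jmjd1c, and Jmjd7 at 1.06 lies farthest to the right.

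Of 19 listed pairs of close paralogs, 18 had counts for both genes. In 3 of these 18 the genes changed in opposite directions, namely Ehmt2 and Ehmt1, Kmt5c and Kmt5b, and Kdm4a and Kdm4c. The rise of Kdm4a was small and was lost in 7 of 12 alternative settings. Kdm4b, which was not listed as a pair with Kdm4c, also rose. The 150 bases before the annotated start of each gene of the 3 pairs are shown so that the promoters of each pair can be read side by side. They come from RefSeq (build GRCr8), 5′ to 3′ on the strand of the gene, and capitals mark matches on either strand to the GC box GGGCGG of SP factors, the NF-Y box CCAAT, the CREB motif TGACG and the ETS core CCGGAA.
Ehmt2 (rose), chr20:3940711-3940860, minus strand: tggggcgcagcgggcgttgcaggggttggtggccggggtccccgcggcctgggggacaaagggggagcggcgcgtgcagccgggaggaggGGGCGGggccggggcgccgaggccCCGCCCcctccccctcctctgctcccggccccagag
Ehmt1 (fell), chr3:28127127-28127276, minus strand: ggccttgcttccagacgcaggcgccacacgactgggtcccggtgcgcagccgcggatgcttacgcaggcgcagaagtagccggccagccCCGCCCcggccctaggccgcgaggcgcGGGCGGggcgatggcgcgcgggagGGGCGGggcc
Kmt5c (rose), chr1:78135932-78136081, minus strand: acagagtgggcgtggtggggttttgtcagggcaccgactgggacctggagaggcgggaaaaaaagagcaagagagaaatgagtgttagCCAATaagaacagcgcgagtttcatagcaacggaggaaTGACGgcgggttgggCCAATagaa
Kmt5b (fell), chr1:210429522-210429671, plus strand: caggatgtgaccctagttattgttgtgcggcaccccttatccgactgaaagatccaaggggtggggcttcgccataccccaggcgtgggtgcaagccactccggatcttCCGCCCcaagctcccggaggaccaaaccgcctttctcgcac
Kdm4a (rose), chr5:137004913-137005062, minus strand: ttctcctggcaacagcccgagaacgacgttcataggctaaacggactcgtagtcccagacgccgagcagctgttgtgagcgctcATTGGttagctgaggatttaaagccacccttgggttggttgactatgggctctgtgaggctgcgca
Kdm4c (fell), chr5:93146887-93147036, plus strand: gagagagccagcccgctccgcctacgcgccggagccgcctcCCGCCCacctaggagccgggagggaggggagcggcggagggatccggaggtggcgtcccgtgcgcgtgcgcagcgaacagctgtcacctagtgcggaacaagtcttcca

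The promoters of Ehmt2 and Ehmt1 held 2 and 3 GC boxes in these bases, and those of Kmt5c and Kmt5b shared none of the motifs. Kmt5c had 2 NF-Y boxes and 1 CREB motif, and Kmt5b had 1 GC box. Kdm4a had 1 NF-Y box and Kdm4c 1 GC box. Over the 250 bases before the start, 31 of the 42 members with a single RefSeq start window held a GC box (73.8%, against 33.6% of 24206 genes with a single window), and 12 held a CREB motif (28.6%, against 19.3%). These 24206 genes outnumber the 12028 tested, so they include genes not tested here, whereas nearly all members were tested. Shares among tested genes only were not computed, so the 2 sets are unlike. An NF-Y box stood in 6 of the 10 members that rose and in 9 of the 24 that fell, against 34.4% of all such genes. The CREB motif stood in 2 of the 10 that rose and 9 of the 24 that fell, and the GC box in 7 of the 10 and 18 of the 24. These splits were not tested. The ETS core stood in 31.0% of the members, against 13.9%. The median number of CpG sites was 22 for the members, 14 for those that rose and 23.5 for those that fell, against 6 for the 24206 genes with a single window. These matches describe letters in a window and do not show that a factor binds there.

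Among the H3K4 methyltransferases the members fell by very different amounts, and Kmt2b did not pass. Kmt2a (MLL1) had 10.6, 12.0 and 10.9 CPM in Nono-KO cells, against 34.5, 43.5 and 49.1 CPM in WT cells, a log2 fold change of -1.92 (standard error 0.14). Kmt2c, which methylates H3K4 at enhancers, had 4.80, 5.40 and 2.91 CPM in Nono-KO, against 13.0, 19.7 and 16.6 CPM in WT (-1.91, standard error 0.23). For both genes every Nono-KO library lay far below the lowest WT library, and 39% of all genes tested had all Nono-KO libraries below. Their closest paralogs changed less. Kmt2b had 97.4, 106 and 97.1 CPM in Nono-KO, against 93.5, 85.1 and 106 CPM in WT, with overlapping groups and a 95% interval of the log2 fold change from -0.14 to 0.29. Kmt2d, the other enhancer enzyme, had 104, 111 and 104 CPM in Nono-KO, against 127, 129.6 and 162 CPM in WT (-0.39, standard error 0.10). Setd1a and Setd1b, which place most H3K4 trimethylation in the cell, both fell. Setd1b had 28.7, 31.4 and 28.0 CPM in Nono-KO, against 60.4, 59.99 and 78.5 CPM in WT (-1.17), and Setd1a had a log2 fold change of -0.45. Setd7, which monomethylates H3K4 and many other proteins, fell by 0.52 on the log2 scale, a call that was lost in 4 of 12 alternative settings.

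The 4 members counted as core subunits of H3K4 methyltransferase complexes went in both directions. Rbbp5, which with Ash2l activates the SET domain, had 40.6, 35.9 and 41.2 CPM in Nono-KO, against 66.3, 75.4 and 75.9 CPM in WT (log2 fold change -0.89). The scaffold subunit Wdr5 had 78.4, 76.3 and 76.5 CPM in Nono-KO, against 113, 114 and 125 CPM in WT (-0.60). Menin (Men1), which joins only the complexes of Kmt2a and Kmt2b, had 146, 150.2 and 139.9 CPM in Nono-KO, against 109, 108 and 122 CPM in WT (0.36). Groups did not overlap for any of these genes, as for 75.1% of all genes tested, whereas Ash2l overlapped (0.18, 95% interval -0.08 to 0.45). Dpy30, not a member and counted below with the accessory subunits, rose by 0.55 on the log2 scale. It was named after its values were seen.

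Ehmt2 was the writer with the largest rise. Ehmt2 (G9a), which dimethylates H3K9 in euchromatin, had 356, 368 and 320.2 CPM in Nono-KO, against 215, 174 and 207 CPM in WT, which is 0.81 higher on the log2 scale (standard error 0.10) with an adjusted p of 1.81e-05 in edgeR. Its partner Ehmt1 (GLP), with which it forms the active dimer, had 40.5, 40.6 and 46.7 CPM in Nono-KO, against 57.1, 58.0 and 56.5 CPM in WT (-0.42, standard error 0.09). Both differences were larger than the spread between libraries. The other H3K9 enzymes among the members fell too, and Suv39h1, which had no entry, could not be compared. Setdb1, which silences endogenous retroviruses, had a log2 fold change of -0.65, its relative Setdb2 one of -0.84 and Suv39h2, an enzyme of heterochromatin, one of -0.96. Suv39h2 had 1.58, 2.23 and 2.33 CPM in Nono-KO, against 4.13, 3.96 and 3.89 CPM in WT. Setdb2 had 10 to 20 counts per Nono-KO library and 27 to 29 per WT library, and its call was lost in 4 of 12 alternative settings.

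PRC2 was uneven across its subunits. Suz12, the subunit that holds the complex together, had 4.15, 3.34 and 3.81 CPM in Nono-KO, against 9.05, 13.3 and 7.73 CPM in WT (log2 fold change -1.41, standard error 0.22). The catalytic subunit Ezh2 had 14.7, 12.6 and 17.3 CPM in Nono-KO, against 18.6, 19.9 and 20.8 CPM in WT (-0.41, standard error 0.14). The groups did not overlap for either gene, as for 75.1% of all genes tested. The call of Ezh2 was lost without Nono-KO replicate 2 and without WT replicate 3. The paralog of Ezh2, Ezh1, typical of cells that do not divide, had 16.3, 15.4 and 16.8 CPM in Nono-KO, against 19.1, 15.1 and 15.9 CPM in WT (-0.05, 95% interval -0.33 to 0.23). Eed, which binds trimethylated H3K27, had 15.6, 16.3 and 19.7 CPM in Nono-KO, against 16.3, 19.0 and 17.7 CPM in WT (-0.04, 95% interval -0.32 to 0.25). For Ezh1 and Eed the groups overlapped, and the sign of the estimate depended on the scaling and on single libraries.

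All 5 H3K36 methyltransferases fell, 4 of them as DEGs, where 38.1% of all genes tested fell and 18.7% were lower as DEGs. Nsd2, which dimethylates H3K36, had 32.1, 30.1 and 37.2 CPM in Nono-KO, against 113, 109.9 and 120.2 CPM in WT, a log2 fold change of -1.78 (standard error 0.10) with an adjusted p of 8.43e-08 from edgeR, the lowest of the 55 members. Setd2, the enzyme for H3K36 trimethylation on transcribed genes, had 4.27, 3.45 and 2.01 CPM in Nono-KO, against 9.55, 13.5 and 10.7 CPM in WT (-1.80, standard error 0.25). The NSD enzyme Nsd1 had 3.63, 4.90 and 3.81 CPM in Nono-KO, against 11.6, 14.3 and 13.0 CPM in WT (-1.65). No Nono-KO library of these genes reached the lowest WT value, as for 39% of all genes tested. Ash1l, a Trithorax-group enzyme, had 4.62, 3.62 and 3.76 CPM in Nono-KO, against 11.3, 16.8 and 12.4 CPM in WT (-1.75). Nsd3 changed less, with 13.8, 14.3 and 17.6 CPM in Nono-KO, against 26.9, 27.7 and 26.0 CPM in WT (-0.82). Dot1l, the enzyme for H3K79, had 84.8, 84.5 and 80.2 CPM in Nono-KO, against 180.0, 207 and 227 CPM in WT (-1.30, standard error 0.10), which also made it a DEG.

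The H4K20 enzymes differed among themselves. Kmt5b, which dimethylates and trimethylates H4K20, had 3.51, 3.84 and 3.87 CPM in Nono-KO, against 12.2, 16.1 and 15.2 CPM in WT (log2 fold change -1.95, standard error 0.16). Its paralog Kmt5c, with the same activity in heterochromatin, had 12.9, 10.6 and 12.4 CPM in Nono-KO, against 8.96, 5.13 and 8.96 CPM in WT (0.64, standard error 0.20). Neither gene overlapped between the groups, as for 75.1% of all genes tested. Kmt5a, the monomethyltransferase needed in S phase and mitosis, had 106, 120.1 and 126 CPM in Nono-KO, against 106, 129 and 144 CPM in WT (-0.11, 95% interval -0.36 to 0.14). Among SET domain proteins with no agreed histone activity, Kmt2e had 10.4, 10.3 and 10.7 CPM in Nono-KO, against 27.1, 38.4 and 34.3 CPM in WT (-1.67), and Setd5 had 24.2, 26.1 and 24.6 CPM in Nono-KO, against 60.4, 73.4 and 70.3 CPM in WT (-1.45). Setd6, known for methylating the NF-kappaB subunit RelA, rose by 0.51 and Setd4 by 0.33 on the log2 scale. Setd3, which methylates a histidine of actin, had 55.8, 53.3 and 59.6 CPM in Nono-KO, against 52.0, 55.1 and 49.9 CPM in WT (0.10, 95% interval -0.09 to 0.30).

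**Figure D2:**
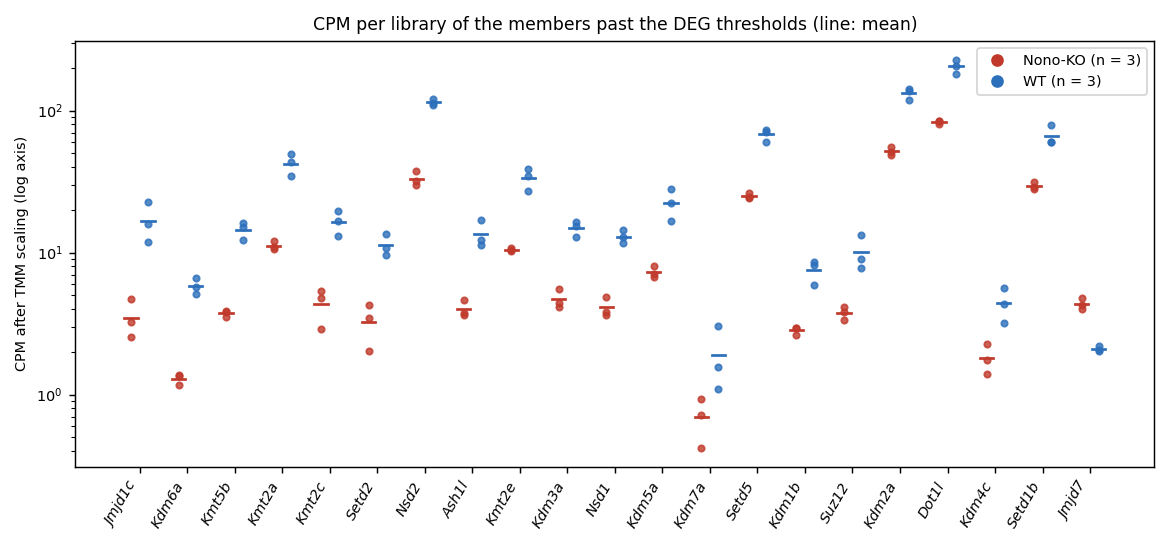
CPM after TMM scaling (vertical axis, log scale) of the 21 members past the DEG thresholds (horizontal axis, ordered by fold change). Points are the 3 Nono-KO and 3 WT libraries and lines are means. In all but Jmjd7 the Nono-KO points lie below the WT points, as for Nsd2 at 30.1 to 37.2 CPM against 109.9 to 120.2 CPM.

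Erasers of H3K4 methylation fell throughout. Kdm1b had 2.92, 2.95 and 2.65 CPM in Nono-KO, against 5.92, 8.23 and 8.62 CPM in WT (log2 fold change -1.42, standard error 0.20). Kdm1a (LSD1), which acts within the CoREST complex, had 44.4, 43.5 and 46.2 CPM in Nono-KO, against 67.5, 67.4 and 65.3 CPM in WT (-0.58, standard error 0.08). Among the JmjC enzymes for trimethylated H3K4, Kdm5a had 6.73, 7.07 and 8.05 CPM in Nono-KO, against 16.6, 28.1 and 22.5 CPM in WT (-1.62). Groups did not overlap for any of these, as for 75.1% of all genes tested. The X-linked Kdm5c had 107, 101 and 105 CPM in Nono-KO, against 142, 139 and 149 CPM in WT (-0.45), and Kdm5b fell by 0.77 on the log2 scale.

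The H3K9 demethylases of the Kdm3 family held the largest change of all members. Jmjd1c, whose demethylase activity is debated, had 4.68, 3.23 and 2.54 CPM in Nono-KO, against 11.8, 22.7 and 15.9 CPM in WT, a log2 fold change of -2.27 (standard error 0.27). WT replicate 1 was the lowest WT library, and without it the log2 fold change was -2.48. Kdm3a, a hypoxia-induced enzyme, had 4.45, 5.57 and 4.13 CPM in Nono-KO, against 12.8, 16.4 and 15.4 CPM in WT (-1.66). Kdm3b had 35.6, 34.0 and 38.2 CPM in Nono-KO, against 70.9, 66.1 and 65.2 CPM in WT (-0.91). All 3 genes of the family were separated between the groups, as were 75.1% of all genes tested.

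The Kdm4 family, which acts on trimethylated H3K9 and H3K36, went in both directions. Kdm4c had 1.40, 2.28 and 1.75 CPM in Nono-KO, against 3.18, 5.61 and 4.34 CPM in WT (log2 fold change -1.27, standard error 0.27), from 24 to 41 counts per Nono-KO library. Kdm4a had 74.5, 69.7 and 78.4 CPM in Nono-KO, against 66.0, 60.3 and 64.1 CPM in WT (0.22, adjusted p = 0.0353 from edgeR), and Kdm4b had 64.0, 66.3 and 54.0 CPM in Nono-KO, against 46.6, 43.8 and 54.9 CPM in WT (0.34, adjusted p = 0.0161). The rise of Kdm4a was lost in 7 and that of Kdm4b in 3 of 12 alternative settings, and the groups of Kdm4b overlapped. Kdm4d had 4, 2 and 3 counts in Nono-KO and 0, 0 and 2 counts in WT libraries and was not tested, as was Kdm4dl2, a Kdm4d-like gene with at most 2 counts in a library, and reads of these near copies may be shared.

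Both H3K36 demethylases of the Kdm2 family fell, Kdm2a more than Kdm2b. Kdm2a had 48.9, 55.4 and 51.2 CPM in Nono-KO, against 118, 137 and 143 CPM in WT (log2 fold change -1.35, standard error 0.10). Kdm2b, which brings a variant of Polycomb complex PRC1 to CpG islands, had 48.5, 47.4 and 48.6 CPM in Nono-KO, against 64.5, 71.9 and 78.6 CPM in WT (-0.57). The H3K27 demethylase Kdm6a (UTX) had 1.35, 1.17 and 1.38 CPM in Nono-KO, against 5.07, 6.63 and 5.68 CPM in WT (-2.15, standard error 0.22), the second largest fall of the members. Its paralog Kdm6b (JMJD3) had 65.0, 70.2 and 71.3 CPM in Nono-KO, against 64.8, 82.5 and 106 CPM in WT, with overlapping groups and a 95% interval of the log2 fold change from -0.62 to 0.03. Without WT replicate 1 Kdm6b passed at -0.46. Kdm7a, for dimethylated H3K9 and H3K27, had 0.936, 0.724 and 0.424 CPM in Nono-KO, against 1.09, 3.05 and 1.56 CPM in WT (-1.45, standard error 0.43), from 8 to 16 counts per Nono-KO library. Its call was lost without Nono-KO replicate 3.

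Of the 5 tested members among JmjC proteins that act mainly on other substrates, 3 rose and 0 fell. Among all genes tested 34.2% rose and 38.1% fell, and 5 genes are too few to set a direction for the group. Jmjd7, a lysine hydroxylase of the DRG GTPases in human cells, had 4.04, 4.79 and 4.29 CPM in Nono-KO, against 2.04, 2.19 and 2.06 CPM in WT (log2 fold change 1.06, standard error 0.20). It was the only member higher as a DEG. It lies just past the limit of 1, and reads may be shared with the overlapping gene Pla2g4b. Jmjd6, a lysine hydroxylase of splicing factors, had 44.7, 44.0 and 41.1 CPM in Nono-KO, against 28.7, 39.1 and 35.1 CPM in WT (0.34), a call lost in 2 of 12 alternative settings. Jmjd8 rose by 0.60 on the log2 scale. Jmjd4 (0.30, 95% interval -0.08 to 0.67) and Kdm8 (-0.16, 95% interval -0.39 to 0.07) did not pass. Among members lower as DEGs, Setd1b (-1.17) was nearest to the limit of -1, and Suv39h2 (-0.96) was the first beyond it.

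Ratios of paralogs within a library do not depend on the scaling between libraries, and gene length cancels when the groups are compared. Of 18 pairs of paralogs, 13 had ratios that did not overlap between the groups, 10 of them higher and 3 lower in Nono-KO. No share for gene pairs in general was computed, and 75.1% of single genes did not overlap, so the count describes these pairs only. Each of the 13 has an exact two-sided permutation p of 0.1, the smallest that 3 libraries against 3 can give, and a p of 0.138 adjusted over the 18 pairs, so none can pass 0.05. The ratio of Kmt5c to Kmt5b counts was 3.68, 2.75 and 3.21 in Nono-KO, against 0.732, 0.319 and 0.590 in WT, a 6.18-fold difference in which the more counted gene of the pair changed. The ratio of Kmt2b to Kmt2a was 9.15, 8.86 and 8.95 in Nono-KO, against 2.71, 1.96 and 2.17 in WT (3.98-fold). The ratio of Kdm6b to Kdm6a was 48.3, 60.05 and 51.8 in Nono-KO, against 12.8, 12.4 and 18.7 in WT (3.70-fold). In each of these the Nono-KO libraries were all higher. The ratio of Kmt2d to Kmt2c was 2.94-fold and that of Ehmt2 to Ehmt1 2.36-fold higher in Nono-KO, and Kdm5c gained on Kdm5a (2.20-fold), Kdm5b on Kdm5a (1.77-fold), Nsd3 on Nsd1 (1.79-fold), Kdm2b on Kdm2a (1.72-fold) and Kdm3b on Kdm3a (1.69-fold). Ratios that were lower in Nono-KO were those of Kdm4c to Kdm4a (0.356-fold), Kdm1b to Kdm1a (0.566-fold) and Setd1b to Setd1a (0.610-fold). In 11 of the 13 pairs the gene with more counts in WT gained on its paralog, the others being Kmt5c with Kmt5b and Kdm2b with Kdm2a, a count made after the values were seen. Groups overlapped for Ezh2 to Ezh1, Setdb2 to Setdb1, Nsd2 to Nsd1, Jmjd1c to Kdm3a and Kdm4b to Kdm4a. Of these overlapping pairs, only Setdb2 to Setdb1 had a gain of the gene with more counts in WT. Several pairs share a gene, such as Kdm5a or Kdm4a. Whether the count of 11 goes beyond what genes of like abundance show in general was not tested.

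**Figure D3:**
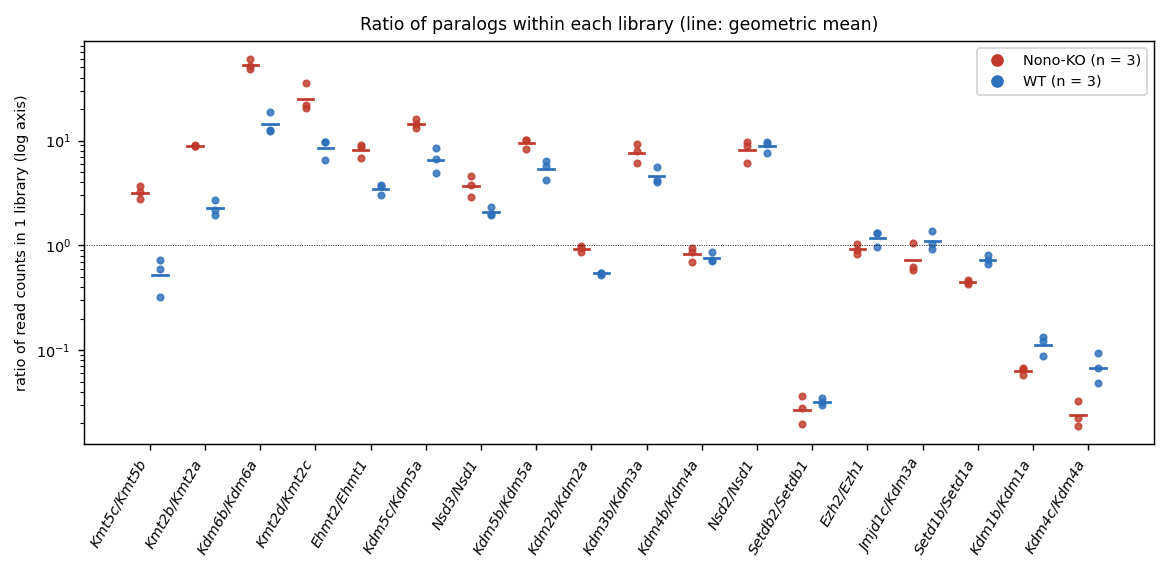
Ratio of read counts of the 2 genes of each of 18 paralog pairs (horizontal axis) in each library (vertical axis, log scale). Points are the 3 Nono-KO and 3 WT libraries, lines are geometric means and the dotted line marks a ratio of 1. The ratio of Kmt5c to Kmt5b lies above 1 in Nono-KO, at 2.75 to 3.68, and below 1 in WT, at 0.319 to 0.732.

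Members were also set beside all genes of the same abundance. Of 17 members with a mean of 5 to 20 CPM over the 6 libraries, 12 fell (70.6%, against 48.7% of all genes in this range) and 10 were lower as DEGs (58.8%, against 28.2%), with a median log2 fold change of -1.41, against -0.34 for all 3080 genes in this range. Of 14 members with 60 CPM and over, 8 fell (57.1%, against 30.9% of all genes in this range) and 3 were lower as DEGs (21.4%, against 8.83%; median -0.42, against 0.13 for 3250 genes). The 7 members under 5 CPM had a median of -0.96 and the 17 with 20 to 60 CPM one of -0.58, against -0.04 and -0.05 for all genes. The median of all genes was also lowest at 5 to 20 CPM. The ranges were set after the values were seen, and CPM is not divided by gene length, so abundance here is that of reads. WT replicate 1 was the lowest WT library for 17 of the 20 members lower as DEGs, and without it 20 members were lower as DEGs.

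**Figure D4:**
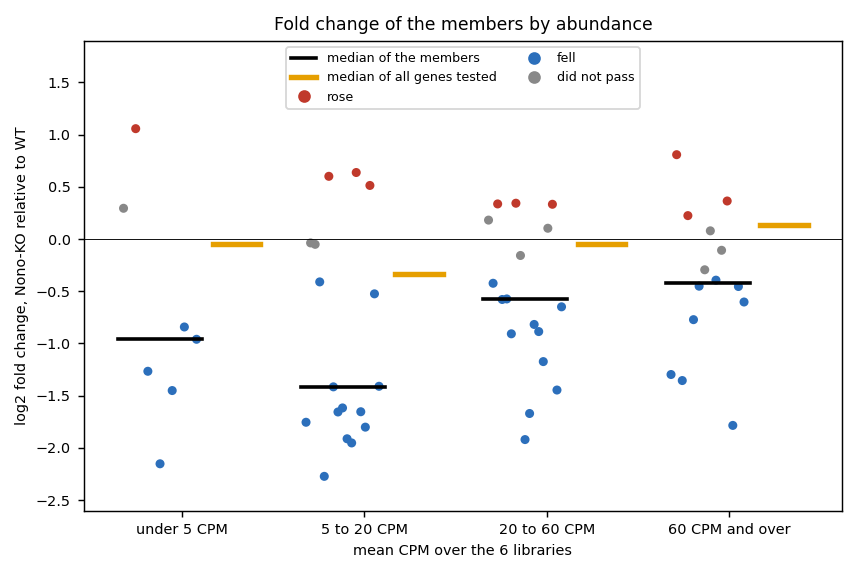
Log2 fold change, Nono-KO over WT (vertical axis), of the tested members by mean CPM over the 6 libraries (horizontal axis). Points are members, coloured by call, and bars are the medians of the members and of all genes tested in the same range. The median of the members is lowest at 5 to 20 CPM, at -1.41, and lies below that of all genes in each range.

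Partners of these enzymes were read against all genes tested, of which 38.1% fell and 34.2% rose. Of 12 accessory subunits of COMPASS, 7 fell and 3 rose at an adjusted p under 0.05 from edgeR (58.3% fell, median log2 fold change -0.67), with Ncoa6 of the Kmt2c and Kmt2d complexes at -1.06 and Hcfc2 at -1.01. Of 9 accessory subunits of PRC2, 7 fell and 0 rose (77.8% fell, median -0.76), among them Lcor (-2.01) and Aebp2 (-1.37). Of 13 partners and readers of H3K9 methylation, 8 fell and 2 rose (61.5% fell, median -0.87), with Tasor2 at -2.05 and Zfp644 at -1.35, and of 7 Dot1l partners 4 fell and 0 rose (57.1% fell, median -0.40), with Aff4 at -1.87 and Mllt10 at -1.43. The share that fell was nearer to that of all genes in the PRC1, LSD1 and KDM5 and other JmjC lists. Of 21 PRC1 subunits 9 fell and 6 rose (42.9% fell, median -0.18), with Bmi1 at -1.37 and the ubiquitin ligase Rnf2 at -1.32. The largest rises, named after their values were seen, were those of Cbx8 (1.23), Ring1 (1.09) and Pcgf2 (0.96). Of 17 partners of LSD1 and the KDM5 enzymes 7 fell and 5 rose (41.2% fell, median -0.24), and the CoREST subunits Rcor1 (-1.74) and Rcor2 (2.17) moved in opposite directions. Of 14 SMYD and PRDM proteins 7 fell and 3 rose (median -0.24), with the muscle enzyme Smyd1 at 2.44 and Prdm10 at -1.996. Of 8 other JmjC proteins 3 fell and 1 rose (37.5% fell, median -0.16), with Riox2 at -1.62 and Phf8 at -0.97.

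Markers of proliferation and of cell types are given beside these results. Of 20 proliferation markers 9 fell (45%, against 38.1% of all genes) and 3 rose (15%, against 34.2%), with a median log2 fold change of -0.26. By the DEG thresholds 7 markers were lower (35%, against 18.7% of all genes) and 0 were higher (against 10.8% of all genes). Mki67 (-1.91) and Top2a (-1.86) fell. The Mcm genes, named after their values were seen, were split. Mcm2 (0.48, with overlapping groups), Mcm3 (0.63) and Mcm5 (0.61) rose, Mcm4 (-1.25) fell, and Mcm6 and Mcm7 did not pass. The summed level of the list overlapped between the groups, at 1569 to 1671 CPM in Nono-KO, against 1472 to 2015 CPM in WT. Of 5 tested skeletal myoblast markers 3 rose and 0 fell, with Myog at 4.03 and Des at 2.13. The summed level was 885 to 985 CPM in Nono-KO, against 572 to 752 CPM in WT. Most of it was Cdh15, which did not pass, with means of 571.8 CPM in Nono-KO and 485.5 CPM in WT. Of 8 smooth muscle markers 6 rose and 1 fell, with Mylk at 3.83 and Lmod1 at 3.49. The 1 that fell was Myocd (-1.62, named after its values were seen). The sum was 14634 to 15715 CPM in Nono-KO, against 6766 to 7628 CPM in WT. Most of it was Acta2, with means of 11595 CPM in Nono-KO and 5311 CPM in WT. Of 8 tested fibroblast markers 3 rose and 4 fell, with Fbln2 at 2.32 and Postn at -0.79. The sum was 29251 to 34393 CPM in Nono-KO, against 37875 to 45798 CPM in WT. Most of it was Col1a1 (-0.47) and Col1a2 (-0.42). Of 15 cardiomyocyte markers 6 were tested, of which 3 rose and 0 fell, with Pln at 2.82 and Nkx2-5 at 0.96. The sum was 180.5 to 209.8 CPM in Nono-KO, against 48.8 to 128 CPM in WT. Most of it was Tnnt2, which did not pass, with means of 127.6 CPM in Nono-KO and 58.1 CPM in WT. In WT replicate 1 Tnnt2 had 13.4 CPM, against 78.0 and 83.0 CPM in the other WT libraries. Of 7 endothelial markers 2 were tested, Egfl7 (0.99) and Vwf (-2.07, named after its values were seen), and Pecam1 had at most 3 counts in a library. The sum was 45.2 to 60.4 CPM in Nono-KO, against 26.7 to 33.1 CPM in WT. Most of it was Egfl7, with means of 51.8 CPM in Nono-KO and 26.0 CPM in WT. Of 4 tested immune markers 1 rose, Cd3e at 3.09, and 1 fell, with a sum of 79.04 to 84.0 CPM in Nono-KO, against 39.0 to 48.3 CPM in WT. Most of it was Cd3e, with means of 50.8 and 6.00 CPM, and Cd14, with means of 28.8 and 31.8 CPM. The part of these shifts in the changes of the writers and erasers was not tested.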

How the data were processed

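RNA-seq of 3 Nono-KO and 3 WT libraries was used, grouped by the submitters' titles. The authors deposited raw read counts per gene symbol, with no scaling or pooling. Values in the 6 files of single libraries were identical to those in the table. Trimmomatic, HISAT2 and HTSeq with the build mRatBN7.2 are listed in the processing notes of the submitters, whereas Bowtie2 and Rn6 stand in the methods of the paper. The sources used here do not say which annotation and strand setting the counting had. Of the members, 15 overlap another protein-coding gene in RefSeq (GRCr8), among them Kmt2c, Kmt2d, Ezh2, Setd2, Dot1l, Jmjd1c, Jmjd7 and Jmjd8, so that reads may be shared.

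Counts were analysed in R 4.3.3 with the quasi-likelihood test of edgeR 4.0.16 (robust, TMM, filterByExpr), with Benjamini-Hochberg adjustment over 12028 genes. A gene rose or fell where the adjusted p was below 0.05, in Nono-KO compared with WT. Standard errors were the size of the log2 fold change over the root of F. Total counts of 17612958 to 19253858 per library leave members with under 30 counts in a library imprecise. Alternatives were DESeq2 1.42.0, other scalings, filters and thresholds, a replicate block and leaving out each library. The members, gene lists, roles and paralog pairs were chosen with earlier results of these data known. Values per library were printed for members past the DEG thresholds, for the most abundant and most changed member of each role, and for paralogs described, and up to 2 genes with at least 5 CPM were named per list. In simulated data for this comparison (11929 genes), of 50 genes per size of change, edgeR recovered 29 at 1.5-fold, 44 at 2-fold, 49 at 4-fold and 50 at 8-fold, and it called 17 of the 11837 genes left alone. The simulation changed few genes, whereas 72.2% of all genes tested were called in the real data, so these figures may not carry over.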

Additional observations from a re-analysis of the deposited data

How the results depend on the processing

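Of the 55 members tested, 39 passed at an adjusted p under 0.05 in edgeR and in all 12 alternative settings, 7 lost the call in at least 1 (Setd7, Setdb2, Ezh2, Kdm4a, Kdm4b, Kdm7a and Jmjd6) and 3 gained it in at least 1 (Ash2l, Kmt5a and Kdm6b). The members that rose numbered 6 at an adjusted p under 0.01, against 10 at 0.05. The erasers that rose were 2 in the main analysis, 1 with total counts, with no filter and with the replicate block, and 0 to 2 when a library was left out, the lowest without Nono-KO replicate 1 and without WT replicate 2. The members higher as DEGs were 0 when the test asked for a log2 fold change beyond 1, and 0 to 1 when a library was left out, Jmjd7 falling short without Nono-KO replicate 2, and those lower as DEGs were 15 and 19 to 20. With size factors of DESeq2 the estimates of Ezh1 and Eed, which never passed, changed sign to 0.0023 and 0.013. Without a library Ezh1 ranged from -0.12 to 0.052 and Eed from -0.11 to 0.036. The median of the members was -0.55 with DESeq2 and -0.66 with total counts, while that of all genes was 0.10 and -0.11. The DESeq2 medians ran without the filter on low counts, so these 2 sets of genes are unlike. With the size factors of DESeq2 in edgeR the median of the 12028 filtered genes was 0.0032, and that of the members -0.55. Deviations from the group means showed no pairing of same-numbered libraries (correlations 0.0454, -0.165 and -0.192, against -0.125 to 0.251 for differently numbered ones). With 3 libraries per group this cannot exclude a pairing. With the replicate block 36 members fell and 9 rose, the call of Kdm4a being lost. Kdm4d and Kdm4dl2 have too few counts for a fold change at this depth.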
